A study of Mus musculus with 12 samples.

Results

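A set of 6 enzymes of cholesterol synthesis and the transcription factor that drives their genes were followed in mouse back skin: Hmgcs1, Idi1, Sqle, Lss, Cyp51, Dhcr7 and Srebf2, which are 7 of the 56923 genes in the count table. They were chosen by name, but with earlier results of these data known, and all 7 were among the 18529 genes with enough reads to test. The working name of the set also covers uptake of cholesterol, but none of the 7 is an uptake gene, so uptake was read from a separate list of other genes.

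Cells make cholesterol from acetyl-CoA. The early steps, among them the one catalysed by HMGCS1, build isoprenoid units that also feed ubiquinone and protein prenylation, and the steps from squalene onward serve sterols alone. When sterols in the membrane of the endoplasmic reticulum run low, SCAP carries the SREBP2 precursor to the Golgi, proteases release its active part, and that part switches on the synthesis genes, with INSIG proteins holding the complex back when sterols are plentiful. In skin, keratinocytes make much of their own cholesterol for the lipid layers of the barrier, and sebaceous glands are another site of lipid synthesis.

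RNA was sequenced from the skin of 12 mice, all female and 8 to 10 weeks old, with 3 mice in each of 4 groups. The WT control and WT IMQ groups were WT littermates, and the other pair of groups carried the Lcn2-/- label on a C57BL/6 background. Both IMQ groups had 5% imiquimod (IMQ) cream on the shaved back daily for 6 days, which produces a psoriasis-like inflammation, and both control groups are described as given vehicle cream in the study's protocol and as untreated ("none") in the sample labels. The genotype is called a knockout in sample titles and a knockdown in another label, and no restriction of the deletion to a cell type is named.

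Lcn2 itself was counted in every library. In CPM, the read count divided by the library's total and scaled by TMM factors to a common library size, it stood at 6.28, 8.64 and 4.57 in the WT control mice, 61.2, 183.0 and 76.1 in the WT IMQ mice, 10.5, 9.22 and 15.9 in the labelled Lcn2-/- controls and 34.3, 29.9 and 49.8 in the labelled Lcn2-/- IMQ mice. The 3 controls carrying the Lcn2-/- label were above all 3 WT controls, though not called (edgeR, Benjamini-Hochberg adjusted p = 0.794). With IMQ, 511 to 830 reads were counted on Lcn2 in each library of that label. All 3 of these mice lay below all 3 WT IMQ mice (log2 difference -1.49 ± 0.40 SE, edgeR adjusted p = 0.0525). The label therefore does not stand for an absence of Lcn2 reads, and these counts alone do not settle the genotype. Which part of the gene the deletion removes was not read from these counts, and the groups are therefore called "labelled Lcn2-/-" throughout.

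Library totals lay between 16448226 and 28592110 reads on genes, and the 7 genes held between 690 and 6368 reads per library, so counting error is small beside the spread between mice. The extraction label mentions retinas, but 4 retina markers summed to between 0 and 12 reads per library, while 5 keratinocyte markers summed to between 3871 and 36410 CPM. The libraries of 3 mice stood apart from their groups. In WT control mouse 2 the 5 hair follicle markers summed to 12.04 CPM, against 3037 and 1666 CPM in the other WT controls, and in control mouse 1 labelled Lcn2-/- to 174.0 CPM against 9735 and 3959 CPM. WT IMQ mouse 2 had 673 CPM over the sebocyte markers, against 187 and 95.9 CPM in the other WT IMQ mice. In whole skin, fewer cells of a type and less RNA per cell cannot be told apart.

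The sequences upstream of the genes are shown because SREBP2 acts there, on sterol regulatory elements that usually work with neighbouring CCAAT boxes and GC boxes. RefSeq promoter windows of build GRCm38.p6, cut to the 250 bases before the start site, were held for 6 of the 7 genes in 8 windows, 3 of them for Dhcr7. Letter patterns of 3 kinds were searched on both strands: the sterol regulatory element core TCACNCCAC, the CCAAT box CCAAT and the GC box GGGCGG, where no pattern contains another. The stretches below read 5′ to 3′ on the plus strand, on which these 3 genes lie, end at or before the annotated start of the gene, and carry in capitals the sterol element core (TCACCCCAC) and the CCAAT boxes, which read ATTGG where they lie on the minus strand.
Hmgcs1, chr13:119690101-119690350: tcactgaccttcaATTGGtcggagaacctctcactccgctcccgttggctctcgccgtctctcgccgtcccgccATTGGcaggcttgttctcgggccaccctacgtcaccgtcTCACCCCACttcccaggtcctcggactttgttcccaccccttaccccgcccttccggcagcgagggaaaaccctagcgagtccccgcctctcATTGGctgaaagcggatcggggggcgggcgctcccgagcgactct
Lss, chr10:76531355-76531587: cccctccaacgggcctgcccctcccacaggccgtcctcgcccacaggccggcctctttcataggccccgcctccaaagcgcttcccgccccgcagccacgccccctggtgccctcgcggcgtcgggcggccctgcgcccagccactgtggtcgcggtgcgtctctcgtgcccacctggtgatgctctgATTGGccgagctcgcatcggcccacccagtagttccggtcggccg
Srebf2, chr15:82147019-82147180: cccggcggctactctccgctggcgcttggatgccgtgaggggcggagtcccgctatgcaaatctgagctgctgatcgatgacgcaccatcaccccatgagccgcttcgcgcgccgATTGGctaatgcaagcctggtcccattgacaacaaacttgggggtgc

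The Hmgcs1 window held the sterol element core 137 to 129 bases before the start, between CCAAT boxes, and was the only one of the 8 windows with that pattern, which 1.05% of all 32851 promoter windows held. A CCAAT box stood in 6 of the 8 windows, against 33.8% of all windows, and a GC box in 7 of the 8, against 32.7%. At gene level each of the 6 genes had at least 1 window with a CCAAT box and at least 1 with a GC box. For Dhcr7 only 1 of its 3 windows held a CCAAT box. The shares above are of windows, and no share of all genes was counted. The Lss box lay 62 to 58 bases and the Srebf2 box 135 to 131 bases before the start. Distances are counted from the RefSeq start site at the end of the window, which for Lss and Srebf2 lies past the end of the printed stretch. These are exact matches of letters to fixed patterns, so a window without a match is not shown to lack a working element. The data hold no measurement of binding.

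The genes lie, in GRCm38, at chr13:119690379-119708260 (Hmgcs1, ENSMUSG00000093930), chr13:8885501-8892451 (Idi1, ENSMUSG00000058258), chr15:59315077-59331192 (Sqle, ENSMUSG00000022351), chr10:76531588-76557138 (Lss, ENSMUSG00000033105), chr5:4081145-4104746 (Cyp51, ENSMUSG00000001467), chr7:143823145-143848410 (Dhcr7, ENSMUSG00000058454) and chr15:82147181-82205379 (Srebf2, ENSMUSG00000022463). Cyp51 lies on the minus strand and the others on the plus strand. Cyp51 shares 166 exon bases of its 4415 with Akap9 on the opposite strand, a gene at 63.2 to 97.3 CPM in these libraries. Whether reads were counted by strand is not stated, so reads in that stretch could belong to either gene. The other overlapping genes held at most 214 reads over all 12 mice.

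The first comparison asked how IMQ changed the set in WT skin. The clearest rise was that of Sqle, squalene epoxidase, which carries out the first oxygen-requiring and often rate-limiting step of the sterol-specific pathway. Its level was 101 CPM, 75.9 CPM and 131 CPM in the WT control mice and 187 CPM, 179 CPM and 147 CPM in the WT IMQ mice. All 3 WT IMQ mice lay above all 3 controls. The rise was 1.67-fold (log2 fold change 0.74 ± 0.22 SE, edgeR quasi-likelihood test with Benjamini-Hochberg adjusted p = 0.0291). Sqle was the only 1 of the 7 called in either direction, while 28.5% of all genes tested were called in this comparison. The median log2 difference of the 7 was 0.29, beside -0.02 over all genes. The call was lost without WT control mouse 1 (adjusted p = 0.0829), WT control mouse 2 (0.0884), WT IMQ mouse 1 (0.0997) or WT IMQ mouse 2 (0.0650), with log2 values from 0.56 to 0.72 in those fits.

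Cyp51, the demethylase that acts on lanosterol, was near the threshold. The WT controls held 131.1, 99.9 and 185.9 CPM and the WT IMQ mice 214.8, 236.1 and 174.3 CPM, so that WT IMQ mouse 3 lay below WT control mouse 3. The log2 difference was 0.58 ± 0.21 with an adjusted p of 0.0537 (edgeR). Without WT control mouse 3 it was 0.85 with an adjusted p of 0.00839, and DESeq2 on the 12 mice gave an adjusted p of 0.0293.

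Idi1, which interconverts the isoprenoid units isopentenyl and dimethylallyl diphosphate, stood at 65.4, 43.7 and 79.2 CPM in WT controls and at 88.2, 117 and 63.2 CPM in WT IMQ mice. These ranges overlapped, and the log2 difference of 0.51 ± 0.26 did not pass the test (adjusted p = 0.157). Lss, which closes the sterol rings to form lanosterol, differed by 0.15 ± 0.21 (adjusted p = 0.622), and its 3 WT IMQ values (74.5, 75.6 and 69.0 CPM) lay inside the span of its WT controls (66.1, 45.0 and 86.5 CPM). Hmgcs1, the enzyme that makes HMG-CoA at the entry of the pathway, had 257, 194 and 339 CPM in WT controls and 233, 274 and 226 CPM in WT IMQ mice. Its difference was -0.11 ± 0.22 (adjusted p = 0.755), with a 95% interval from -0.59 to 0.38.

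Dhcr7, which completes cholesterol in one branch of the pathway and competes there with vitamin D formation for the same precursor, pointed the other way. It stood at 109.8, 92.8 and 127.3 CPM in WT controls and 84.7, 98.3 and 71.0 CPM in WT IMQ mice. The log2 difference of -0.38 ± 0.16 had an adjusted p of 0.0946, which fell under the threshold without WT control mouse 2 (0.0487) or without WT IMQ mouse 2 (0.0432). Srebf2, the gene of SREBP2, was higher in each WT IMQ mouse (195, 185 and 168 CPM) than in any WT control (160, 123 and 165 CPM), but the log2 difference of 0.29 ± 0.16 was not called (adjusted p = 0.194). With Sqle, 2 of the 7 genes had WT groups that did not overlap, both higher with IMQ, where 20.1% of all genes tested were higher without overlap. In the same mice all 5 keratinocyte markers were called higher (14.2% of all genes), with a sum of 3871 to 6433 CPM in controls and 27202 to 36410 CPM with IMQ. Of 6 sebocyte markers 5 were called lower (14.3% of all genes), with a sum of 1349 to 2286 CPM in controls and 95.9 to 673 CPM with IMQ. The part of both cell types in the changes of the 7 genes was not tested.

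**Figure D1:**
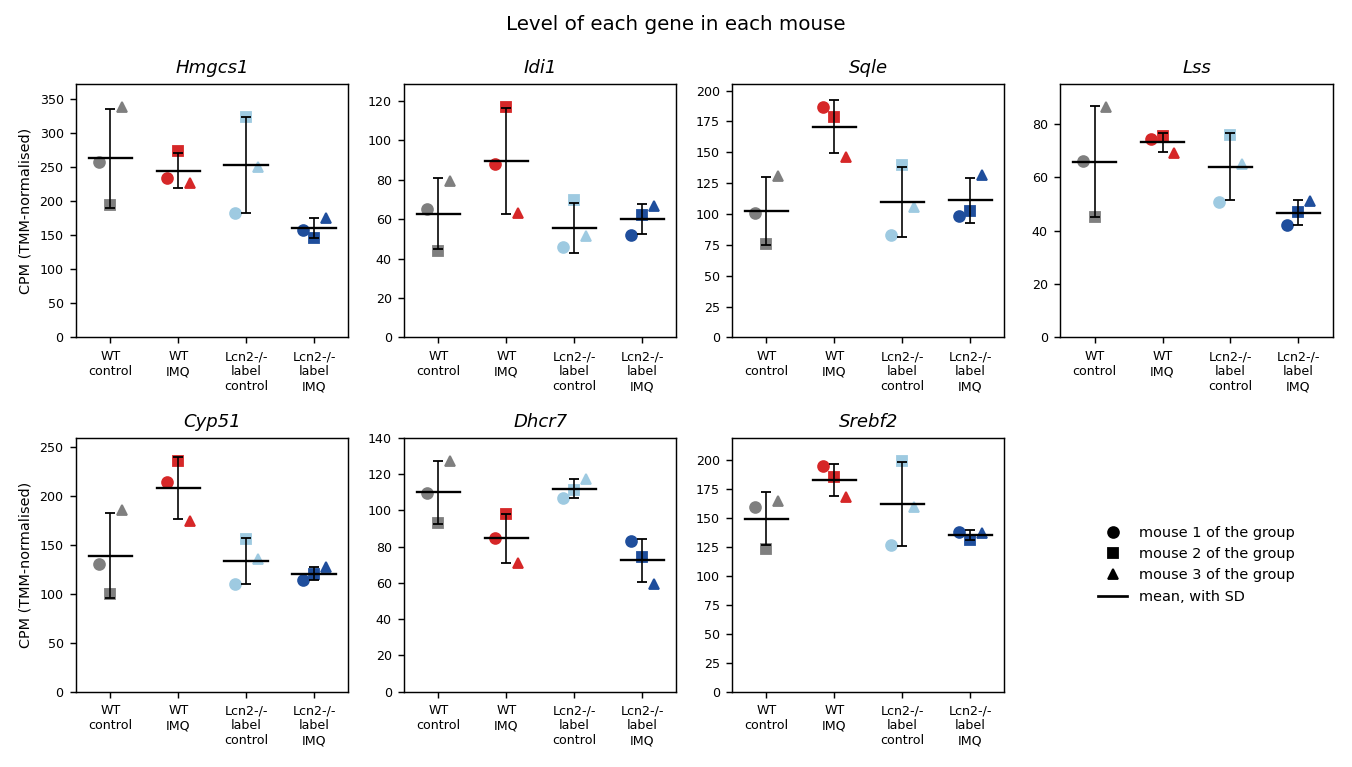
Level of the 7 genes in each of the 12 mice, in TMM-normalised CPM from 0 upward, with circles, squares and triangles for mice 1, 2 and 3 of a group and lines and bars for the mean and SD of 3 mice. Sqle lies higher in the WT IMQ mice (147 to 187 CPM) than in every other mouse (75.9 to 140 CPM), and the mean of the labelled Lcn2-/- IMQ mice is below that of the WT IMQ mice for each of the 7 genes.

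The second comparison asked the same of mice labelled Lcn2-/-. Here the 2 genes called were lower with IMQ, and none was higher, against 25.3% of all genes called in either direction and 11.2% called lower. The median of the 7 was -0.26, beside -0.05 over all genes. Dhcr7 fell from 107.0, 111.4 and 117.3 CPM to 83.2, 74.5 and 59.6 CPM. The 3 controls were tightly placed and every IMQ mouse lay below them. The log2 fold change was -0.63 ± 0.16 (edgeR adjusted p = 0.0145), and the call was lost without IMQ mouse 3 (-0.51, adjusted p = 0.0643).

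Hmgcs1 was called close to the threshold. Its controls of this label held 183, 324 and 250 CPM and its IMQ mice 158, 146 and 176 CPM, without overlap but with 1 control near the IMQ mice. The log2 fold change of -0.66 ± 0.22 had an edgeR adjusted p of 0.0487. It was not called with RLE size factors (adjusted p = 0.0504), and of the 6 fits with a mouse left out it was called only without control mouse 1 (adjusted p = 0.0165). Without control mouse 2 the difference was -0.44 (adjusted p = 0.194), and without control mouse 3 or IMQ mouse 1, 2 or 3 the adjusted p lay between 0.0856 and 0.141. Dhcr7 and Hmgcs1 were also the 2 of the 7 whose groups did not overlap, where 22.8% of all genes tested were lower without overlap.

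The other members were not called after IMQ in mice of this label. Sqle, called in the WT comparison, stood at 83.0, 140 and 106 CPM in these controls and 98.7, 103 and 132 CPM in these IMQ mice, a difference of 0.02 ± 0.22 (95% interval -0.47 to 0.51). Lss had 50.8, 75.9 and 65.1 CPM in controls and 42.1, 47.0 and 51.3 CPM in IMQ mice, a difference of -0.45 ± 0.21 (adjusted p = 0.134), with IMQ mouse 3 just above control mouse 1. Idi1 stood at 45.7, 69.5 and 51.4 CPM against 52.0, 61.9 and 66.6 CPM, a difference of 0.12 ± 0.26. For Cyp51 the values were 110.0, 156.5 and 135.3 CPM against 114.5, 120.6 and 127.7 CPM, a difference of -0.15 ± 0.21. Srebf2 held 127, 199.0 and 159.5 CPM against 138, 130 and 137 CPM, a difference of -0.26 ± 0.16. In these last 3 genes the IMQ values lay within the span of the controls. The 5 keratinocyte markers were called higher here as well (14.1% of all genes), with a sum of 4212 to 5182 CPM in controls and 15354 to 25943 CPM with IMQ. Of 6 sebocyte markers 4 were called lower (11.2% of all genes), with a sum of 1126 to 1629 CPM in controls and 246 to 390 CPM with IMQ. The part of both cell types was not tested.

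The IMQ groups were then compared with each other, which asks how the lesions of the genotype labels differed. All 7 genes had lower fitted levels in the labelled Lcn2-/- IMQ mice than in the WT IMQ mice, with log2 differences from -0.79 to -0.22 and a median of -0.61, beside a median of -0.02 over all 18529 genes. None of the 7 was called by edgeR with adjustment over all genes, where 4.78% of genes were called. At an unadjusted p under 0.05 the count was 6 of 7, beside 27% of all genes. DESeq2 called 2 of 7 (Lss and Cyp51), and 2650 genes in all. The groups did not overlap in 5 of the 7 genes, all lower, where 17.3% of all genes were lower without overlap.

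Cyp51 showed the widest gap. The lowest WT IMQ mouse held 174 CPM and the highest labelled Lcn2-/- IMQ mouse 128 CPM, and the log2 difference was -0.79 ± 0.21 (1.72-fold lower, edgeR adjusted p = 0.0522). Lss came next, at 69.0 to 75.6 CPM against 42.1 to 51.3 CPM (-0.64 ± 0.21, adjusted p = 0.0856). The Sqle values were 147 to 187 CPM against 98.7 to 132 CPM (-0.62 ± 0.22, adjusted p = 0.108). Those of Hmgcs1 were 226 to 274 CPM against 146 to 176 CPM (-0.61 ± 0.22, adjusted p = 0.110). Srebf2 was at 168 to 195 CPM against 130 to 138 CPM (-0.43 ± 0.16, adjusted p = 0.116). In these 5 genes each WT IMQ mouse was above each labelled Lcn2-/- IMQ mouse.

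Idi1 and Dhcr7 were the exceptions. For Idi1, WT IMQ mouse 3 (63.2 CPM) lay between labelled Lcn2-/- IMQ mice 2 and 3 (61.9 and 66.6 CPM), and the difference was -0.57 ± 0.26 (adjusted p = 0.178). For Dhcr7 the groups overlapped (71.0 to 98.3 CPM against 59.6 to 83.2 CPM) and the difference was -0.22 ± 0.16 (adjusted p = 0.379), with a 95% interval from -0.57 to 0.12. The number called depended on the fit. It was 5 of 7 when only the 6 IMQ mice were fitted, a fit that called 1894 genes in all. It was 0 of 7 whichever 1 of these mice was left out. Without WT IMQ mouse 2, 2726 genes were called in all. The other fits called 0 to 4 genes in all, so their 0 of 7 says little about these genes.

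Marker levels of several cell types are given for the same mice, in a comparison where 2.19% of all genes were called higher and 4.78% in either direction. The 5 keratinocyte markers summed to 27202 to 36410 CPM in WT IMQ mice and to 15354 to 25943 CPM in labelled Lcn2-/- IMQ mice, with 1 of the 5 called lower. Fibroblast markers summed to 9569 to 10033 CPM and 18990 to 19783 CPM, with 3 of 5 called higher, and macrophage markers to 981 to 1679 CPM and 1605 to 2257 CPM, with none of the 4 called. The 5 proliferation markers summed to 452 to 640 CPM and 340 to 422 CPM, with none called. Sebocyte markers summed to 95.9 to 673 CPM and 246 to 390 CPM, with none of the 6 called. By sign, 5 of 5 adipocyte, 4 of 4 neutrophil and 5 of 5 skeletal muscle markers were higher in labelled Lcn2-/- IMQ mice. The 5 hair follicle markers were lower, and none of these was called. The part of these differences in the levels of the 7 genes was not tested.

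Among the controls, the genotype labels did not separate for any of the 7 genes. The log2 differences lay between -0.18 (Idi1) and 0.12 (Srebf2), all 7 pairs of groups overlapped (9.37% of all genes did not), none had an unadjusted p under 0.05 by edgeR (6.6% of all genes did), and DESeq2 called none either. In this comparison edgeR called 0.0108% of all genes. The 95% intervals of the difference were narrowest for Dhcr7 (-0.32 to 0.37) and widest for Idi1 (-0.74 to 0.38).

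How far the IMQ responses differed between labels was tested as an interaction, which asks directly whether a gene such as Sqle responded differently. All 7 interaction terms were negative, from -0.73 for Cyp51 and -0.72 for Sqle to -0.25 for Dhcr7, with a median of -0.55 beside -0.02 over all genes. None was called by edgeR after adjustment (adjusted p from 0.158 to 0.524) or by DESeq2, with 2.15% of all genes called by edgeR. Without adjustment 3 of the 7 had a p under 0.05 (Sqle 0.0431, Cyp51 0.0283 and Srebf2 0.0318), beside 24.1% of all genes. The Cyp51 term was called only in the fit without WT control mouse 3 (-0.995, adjusted p = 0.0410). A differing response of Sqle between the labels was therefore not shown, although it was called in one and not in the other. These comparisons share groups, and the signs of one are not independent of those of the next.

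**Figure D2:**
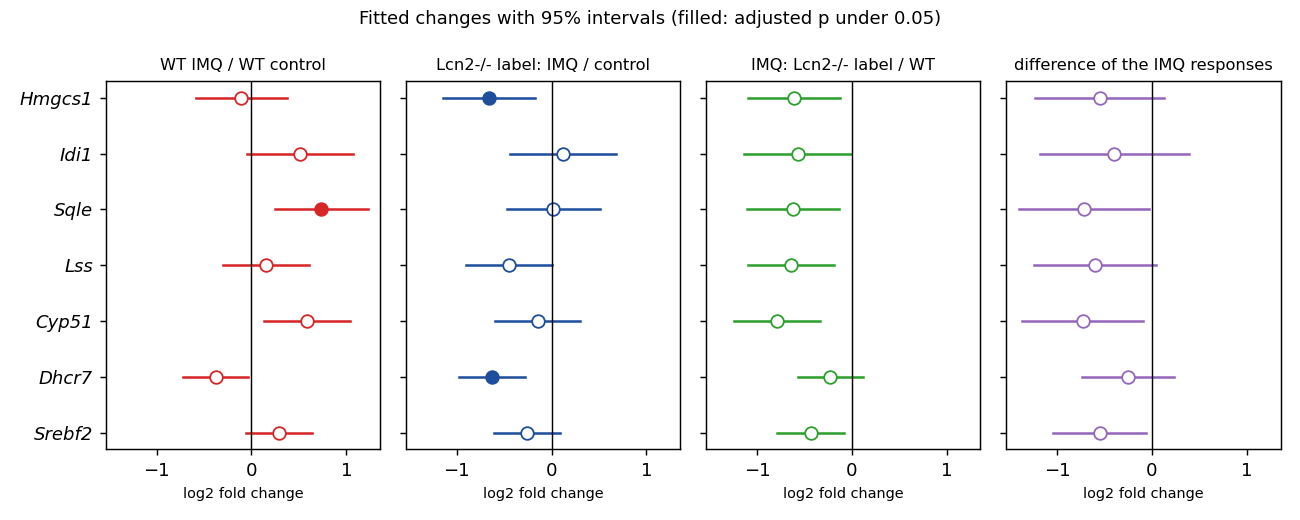
Fitted log2 fold changes of the 7 genes (horizontal axis) with 95% intervals, in a panel each for the IMQ response of WT mice, the IMQ response of labelled Lcn2-/- mice, the IMQ groups against each other and the difference between both responses. Filled points have an adjusted p under 0.05, which holds for Sqle in the first panel and for Hmgcs1 and Dhcr7 in the second, and in the other panels, to the right, all 7 points lie left of 0.

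Within groups, the 7 genes ranked the mice in much the same order. WT control mouse 2 was the lowest of its group for 7 of the 7 genes and WT control mouse 3 the highest for 7. Control mouse 1 labelled Lcn2-/- was the lowest of its group for 7 and control mouse 2 the highest for 6. WT IMQ mouse 3 was lowest for 7 and WT IMQ mouse 2 highest for 5. In the labelled Lcn2-/- IMQ mice the order was looser, with mouse 1 lowest for 4 and mouse 3 highest for 5. The summed level of the 7 genes ran from 674 to 1113 CPM in WT controls and from 707 to 1076 CPM in controls of the other label, and the labelled Lcn2-/- IMQ mice were at 687, 683 and 750.0 CPM, mice 1 and 2 below each control of their label.

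The lowest control of each label for these genes was also the one with the least hair follicle and proliferation signal. WT control mouse 2 had 197.0 CPM over the proliferation markers against 735 and 796 CPM in the others, and labelled Lcn2-/- control mouse 1 had 539 CPM against 945 and 610 CPM. Their hair follicle sums are given above. The IMQ mice had hair follicle sums of 11.8 to 87.2 CPM whatever their level of the 7 genes, with WT IMQ mice 1 and 2 at 16.4 and 18.1 CPM and a summed level of 1078 and 1165 CPM over the 7. Whether hair cycle stage accounts for the spread among controls was not tested.

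**Figure D3:**
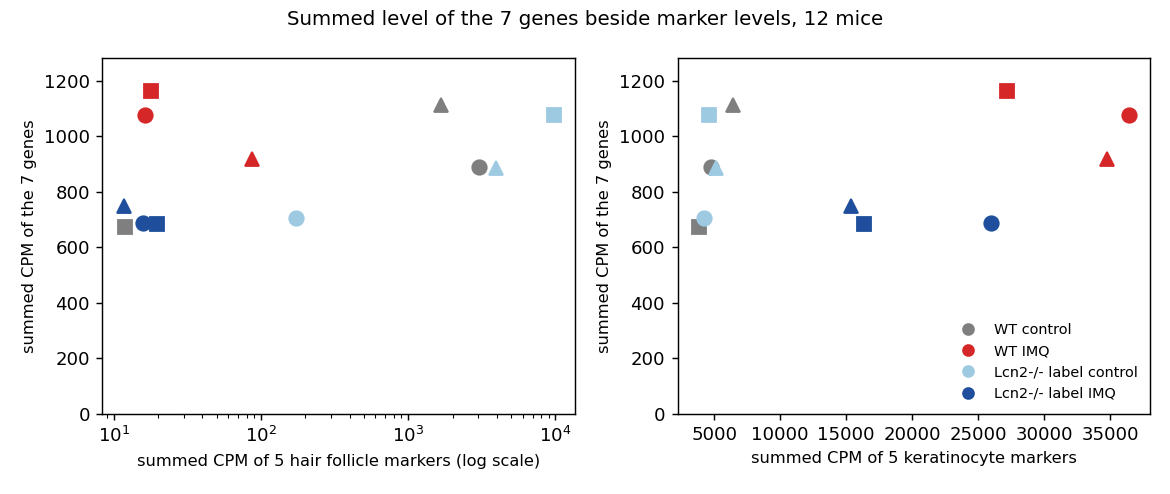
Summed CPM of the 7 genes (vertical axes, from 0) against the summed CPM of 5 hair follicle markers (left, log scale) and of 5 keratinocyte markers (right), 1 point a mouse, coloured by group, with circles, squares and triangles for mice 1, 2 and 3. Among controls the mice with the least hair follicle signal (12.04 and 174.0 CPM) have the lowest sums (674 and 707 CPM), and the IMQ mice of the labels sit at different heights at hair follicle sums of 11.8 to 87.2 CPM.

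The likeness between members was uneven. After subtracting group means, the correlation of log2 CPM over the 12 mice (Pearson's r, a description, since the genes share each library's scaling) lay between 0.31 and 0.94 over the 21 pairs, with a median of 0.85. Lss and Cyp51 were the closest pair (0.94), and Sqle and Dhcr7 the least close (0.31). All 6 pairs with Dhcr7 lay between 0.31 and 0.61. The other 15 pairs lay between 0.76 and 0.94.

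The genes most like the mean profile of the 7, among 15976 other genes with a mean of at least 1 CPM, were not synthesis enzymes. Of the 10 closest, 9 are named here: Bnipl (r = 0.94 over 12 mice), Alyref (0.93), Eif1ax (0.93), Gclm (0.92), Gm3571 (0.92), Gm10093 (0.91), Purb (0.91), Gm7846 (0.90) and Gm13135 (0.90). The 4 genes named with Gm are annotated as processed pseudogenes, whose reads may belong to their parent genes. Of the other synthesis enzymes, Mvd ranked 118th (0.82) and Fdft1 132nd (0.82), while Ebp (0.08) and Sc5d (0.10) showed little likeness.

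The rest of the pathway was read from 13 further synthesis enzymes, a list that is not complete. After IMQ in WT mice 4 of the 13 were called higher and 0 lower, with 14.2% and 14.3% of all genes called in those directions and a list median of -0.07 beside -0.02 over all genes. Hsd17b7, a ketosteroid reductase of the demethylation steps, rose most (1.23 ± 0.18, adjusted p = 0.000619), from 38.4, 35.6 and 56.4 CPM to 111, 102 and 91.7 CPM. Fdps, the farnesyl diphosphate synthase, rose by 1.10 ± 0.25 (adjusted p = 0.00750), from 4.53, 3.31 and 4.63 CPM to 10.1, 9.01 and 7.70 CPM. Its libraries held only 77 to 98 reads in WT controls and 134 to 166 in WT IMQ mice. Reads of Fdps shared with pseudogene copies could not be traced. Ebp, the sterol isomerase, rose by 0.81 ± 0.13 (adjusted p = 0.000800) and Pmvk, phosphomevalonate kinase, by 0.57 ± 0.16 (adjusted p = 0.0202). The calls of Hsd17b7, Fdps and Ebp held with any 1 of the 6 mice left out, and that of Pmvk in 2 of these 6 fits.

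In mice labelled Lcn2-/-, IMQ called 1 of the 13 higher and 3 lower, where 14.1% and 11.2% of all genes were called, and the list median was -0.36. Ebp rose by 0.82 ± 0.13 (adjusted p = 0.00118), much as in WT mice. Sc5d, the lathosterol desaturase, fell by 0.90 (SE 0.19, adjusted p = 0.00653), Fdft1, the squalene synthase, by 0.52 (SE 0.17, adjusted p = 0.0401) and Nsdhl, a sterol dehydrogenase, by 0.51 (SE 0.15, adjusted p = 0.0268). Ebp and Sc5d were called with any 1 of the 6 mice left out, Nsdhl in 2 of these 6 fits and Fdft1 in 1. Hsd17b7 and Fdps differed here by 0.39 ± 0.18 (adjusted p = 0.143) and 0.22 ± 0.25 (adjusted p = 0.559). The remaining enzymes were called in neither response, with log2 values in WT and labelled Lcn2-/- mice of -0.26 and -0.57 for Acat2, 0.25 and 0.25 for Mvk, -0.13 and -0.36 for Mvd, 0.51 and 0.02 for Tm7sf2, -0.42 and -0.51 for Lbr and -0.38 and -0.64 for Msmo1.

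Between the IMQ groups all 13 enzymes had lower fitted levels in the labelled Lcn2-/- mice, as the 7 genes had, with a median of -0.41 and a range from -0.91 to -0.06. Of the 13, 1 was called, where 4.78% of all genes were called in either direction. This was Hsd17b7 (-0.91 ± 0.18, adjusted p = 0.0285). It stood at 111, 102 and 91.7 CPM in WT IMQ mice and 55.4, 53.8 and 52.8 CPM in labelled Lcn2-/- IMQ mice. Its groups were far apart, yet the call held in 1 of the 6 fits with a mouse left out, the one without WT IMQ mouse 2. In the others, which called 0 to 4 genes in all, it had an adjusted p from 0.0724 to 0.147. Its log2 value stayed between -0.98 and -0.84 over the 6 fits. Of 6 alternative fits that left no IMQ mouse out, 5 called it. The replicate number as a block did not (edgeR adjusted p = 0.0579). The groups did not overlap in 8 of the 13, all lower, beside 17.3% of all genes. None of the 13 interaction terms was called by edgeR, and 2 had an unadjusted p under 0.05, beside 24.1% of all genes. The Hsd17b7 term was -0.84 ± 0.26 with an adjusted p of 0.0922, and DESeq2 gave it an adjusted p of 0.0352.

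**Figure D4:**
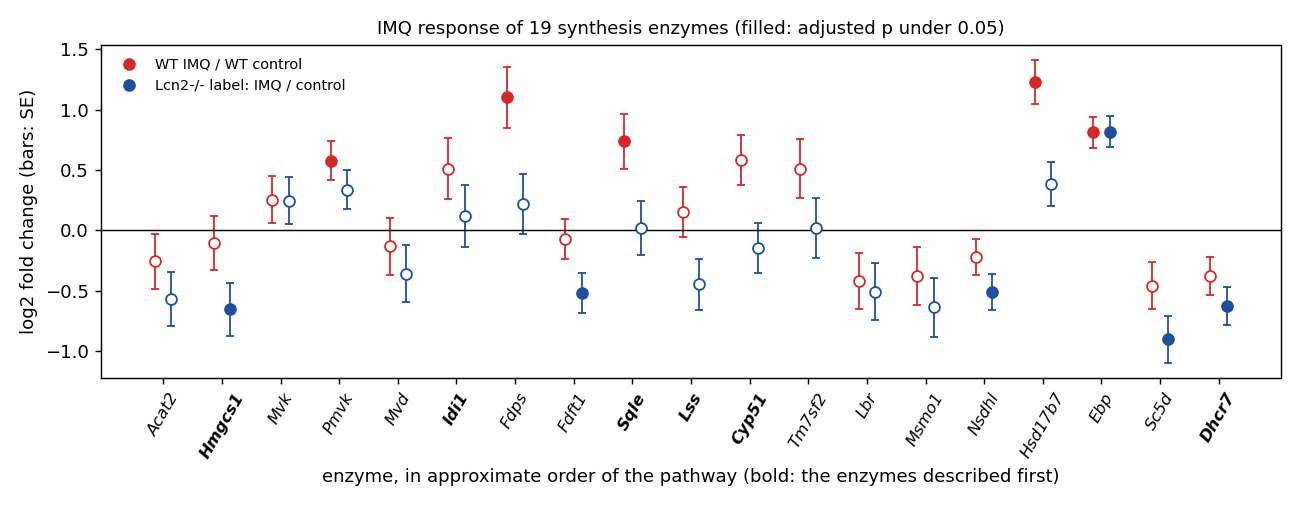
Log2 fold change after IMQ (points, with SE bars) of 19 synthesis enzymes in approximate pathway order, in WT mice (red) and labelled Lcn2-/- mice (blue), filled where the adjusted p was under 0.05. Fdps, Sqle, Hsd17b7, Pmvk and Ebp are filled above 0 in WT mice and only Ebp in labelled Lcn2-/- mice, where Sc5d (-0.90) is the lowest filled point.

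Of 6 genes that control SREBP processing, 1 was called higher and 4 lower in WT mice (14.2% and 14.3% of all genes), and 1 higher and 2 lower in labelled Lcn2-/- mice (14.1% and 11.2% of all genes), with list medians of -0.57 and -0.29. Insig2 fell by 1.46 on the log2 scale in WT mice (SE 0.17, adjusted p = 0.000101), from 126, 160 and 175 CPM to 51.6, 67.6 and 48.9 CPM, and by 1.44 in labelled Lcn2-/- mice (SE 0.17, adjusted p = 0.000200). Insig1, itself a target of SREBP, fell by 1.38 (SE 0.23, adjusted p = 0.00135) and by 0.97 (SE 0.23, adjusted p = 0.0111). Scap, the escort protein, rose by 0.51 ± 0.12 (adjusted p = 0.00723) and 0.45 ± 0.12 (adjusted p = 0.0168). Srebf1 and Mbtps1, the site-1 protease gene, fell in WT mice by 0.67 and 0.47 (adjusted p = 0.00688 and 0.00464), and stood at -0.38 and -0.20 in labelled Lcn2-/- mice without being called. Between the IMQ groups none of the 6 was called by edgeR, with differences from -0.24 to 0.31. Of the 6, 1 had an unadjusted p under 0.05, beside 27% of all genes, and no interaction was called. All calls of Insig1 and Insig2 held with any 1 mouse left out. Both Insig genes had their lower level in skin whose sebocyte markers were also lower (1349 to 2286 CPM in WT controls, 95.9 to 673 CPM in WT IMQ mice), and the part of those cells was not tested.

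Uptake, transport and storage genes went different ways. Of 7, IMQ in WT mice called 1 higher and 2 lower (14.2% and 14.3% of all genes), and in labelled Lcn2-/- mice 4 higher and none lower (14.1% and 11.2%), with list medians of -0.25 and 0.46. Stard4, a sterol carrier, rose in WT mice (0.91 ± 0.26, adjusted p = 0.0221), from 44.9, 23.4 and 46.6 CPM to 76.0, 65.5 and 73.7 CPM, and differed by -0.04 ± 0.26 in labelled Lcn2-/- mice. Soat1, which esterifies cholesterol for storage and is also 1 of the sebocyte markers, fell in WT mice by 1.34 (SE 0.29, adjusted p = 0.00525). Lipa, the lysosomal lipase, rose in labelled Lcn2-/- mice by 1.21 ± 0.29 (adjusted p = 0.0124) and Npc2, which moves cholesterol out of lysosomes, by 0.69 ± 0.20 (adjusted p = 0.0296). In WT mice Lipa stood at -0.22 and Npc2 at -0.24, neither called. The Soat1 and Lipa calls held with any 1 of the 6 mice left out, that of Stard4 in 4 of 6 fits and that of Npc2 in 1 of 6.

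Mylip, an E3 ligase that sends lipoprotein receptors for degradation, changed in opposite directions. It held 73.2, 63.6 and 66.5 CPM in WT controls and 39.1, 54.0 and 49.1 CPM in WT IMQ mice, but 58.0, 64.2 and 63.4 CPM in labelled Lcn2-/- controls and 90.6, 80.9 and 84.2 CPM in labelled Lcn2-/- IMQ mice. It fell by 0.52 in the first pair (SE 0.12, adjusted p = 0.00863) and rose by 0.46 ± 0.12 in the second (adjusted p = 0.0169). Its interaction term was 0.98 ± 0.17 (adjusted p = 0.0249). Scarb1, a receptor for high-density lipoprotein, stood at 119, 119 and 120 CPM, then 71.9, 122 and 75.6 CPM in WT mice, and at 107, 91.1 and 81.4 CPM, then 147, 133 and 164 CPM in labelled Lcn2-/- mice. Its rise in the latter was 0.67 ± 0.19 (adjusted p = 0.0220), and its WT difference of -0.41 ± 0.19 was not called (adjusted p = 0.122). In labelled Lcn2-/- mice the rise of Scarb1 stayed called only without control mouse 1 or IMQ mouse 2 (adjusted p from 0.0543 to 0.0886 in the other 4 refits), and that of Mylip was lost without control mouse 1 (0.0532), IMQ mouse 1 (0.0628) or IMQ mouse 3, while its fall in WT mice held in each refit. Between the IMQ groups Mylip (0.85 ± 0.12, adjusted p = 0.0219) and Scarb1 (0.72 ± 0.19, adjusted p = 0.0494) were the 2 of the 7 called, both higher in labelled Lcn2-/- mice, where 2.19% of all genes were called higher. When 1 of the 6 mice was left out, both calls held only without WT IMQ mouse 2. The other 5 fits gave an adjusted p from 0.0564 to 0.130 for Mylip and from 0.102 to 0.209 for Scarb1. Those 5 fits called 0 to 4 genes in all. Of 6 alternative fits that left no IMQ mouse out, 6 called Mylip and 5 called Scarb1. The fit with the replicate number as a block did not call Scarb1 (edgeR adjusted p = 0.0844).

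The next list held 7 genes: the oxysterol-sensing LXR receptors, efflux transporters, and enzymes that make or modify oxysterols and other sterols. IMQ called 3 of them higher in WT mice (14.2% of all genes) and 5 in labelled Lcn2-/- mice (14.1%), and none lower. The list medians were 0.90 and 1.22. Abcg1, an efflux transporter, went from 41.7, 36.2 and 29.2 CPM to 75.4, 68.5 and 56.6 CPM in WT mice (0.90 ± 0.16, adjusted p = 0.00148) and from 29.4, 23.2 and 31.2 CPM to 99.9, 103 and 108 CPM in labelled Lcn2-/- mice (1.89 ± 0.16, adjusted p = 2.42e-05). Abca1, its partner in efflux, rose in labelled Lcn2-/- mice (1.26 ± 0.20, adjusted p = 0.00115), from 173, 129 and 168 CPM to 351, 398 and 379 CPM, and differed in WT mice by 0.29 ± 0.19 (adjusted p = 0.283). Sult2b1, a sterol sulfotransferase of the epidermis, rose by 2.05 ± 0.24 and 1.22 ± 0.23 (adjusted p = 0.000105 and 0.00339), and Cyp7b1, an oxysterol hydroxylase, by 1.83 ± 0.42 and 2.11 ± 0.43 (adjusted p = 0.00788 and 0.00520). The fifth called in labelled Lcn2-/- mice was Nr1h2, an LXR gene (0.33 ± 0.08, adjusted p = 0.0157), named here after its value was seen. Between the IMQ groups only Abcg1 was called (0.63 ± 0.16, adjusted p = 0.0445), where 2.19% of all genes were called higher. When a mouse was left out this call too held only without WT IMQ mouse 2. The others, which called 0 to 4 genes in all, gave 0.0896 to 0.168. Of 6 alternative fits that left no IMQ mouse out, 5 called Abcg1. The replicate number as a block did not (edgeR adjusted p = 0.0708). The interaction term of Abcg1 was 0.98 ± 0.22 (adjusted p = 0.0450). Macrophages express Abca1 and Abcg1 strongly. All 4 macrophage markers were called higher with IMQ in labelled Lcn2-/- mice (14.1% of all genes), against 1 of 4 in WT mice (14.2%). The marker sums went from 380 to 686 CPM to 1605 to 2257 CPM under the former label. In WT control mice 1, 2 and 3 they were 874, 1590 and 407 CPM, and in WT IMQ mice 981 to 1679 CPM, so control mouse 2 lay within the IMQ range. The part of macrophages was not tested.

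**Figure D5:**
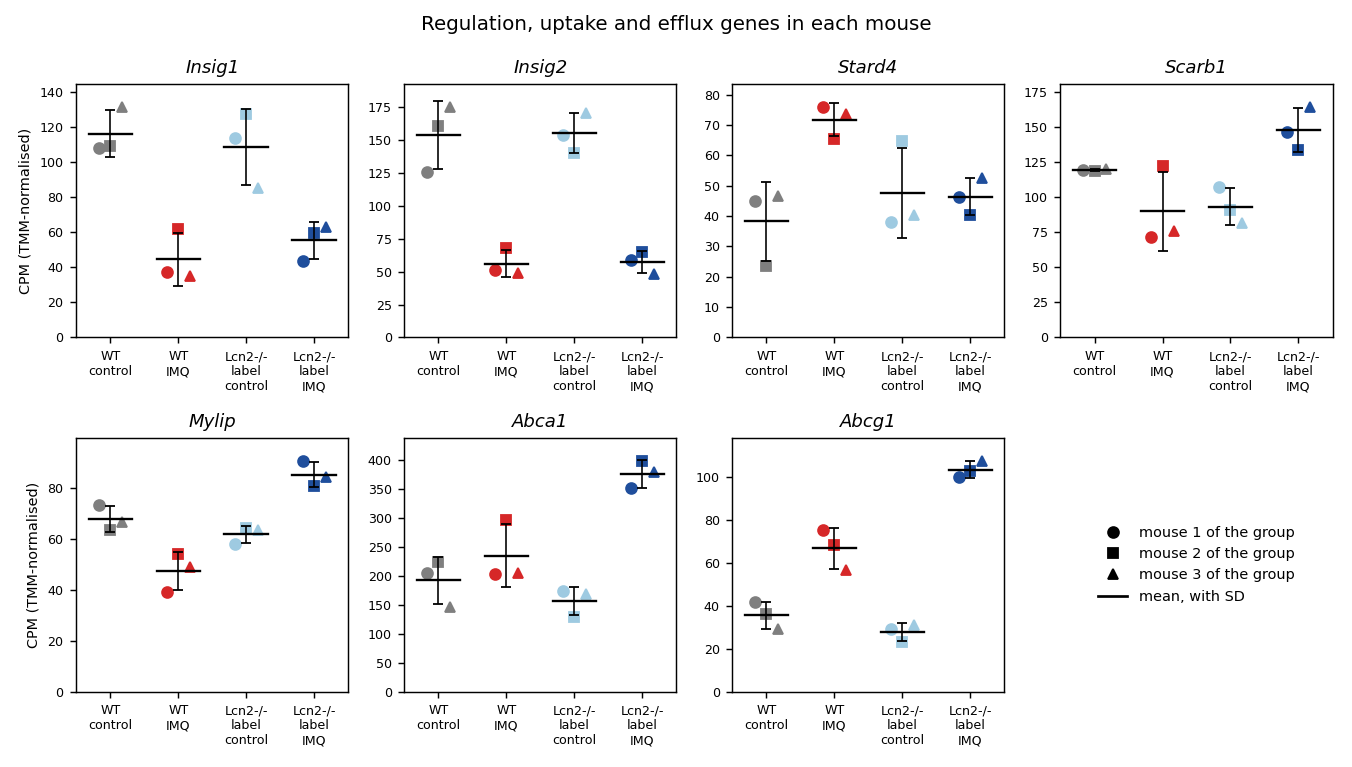
CPM (vertical axes, from 0) of genes of SREBP regulation, uptake and efflux in each of the 12 mice, with circles, squares and triangles for mice 1, 2 and 3 and lines and bars for the mean and SD. Insig1 and Insig2 are lower in each IMQ mouse than in any control, and Mylip and Abcg1 lie higher in the labelled Lcn2-/- IMQ mice (80.9 to 90.6 CPM and 99.9 to 108 CPM) than in the WT IMQ mice (39.1 to 54.0 CPM and 56.6 to 75.4 CPM).

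The neighbouring lipid pathways gave a different picture. Of 8 fatty acid synthesis genes, IMQ called 3 lower in WT mice (14.3% of all genes) and 4 lower in labelled Lcn2-/- mice (11.2%), and none higher, with list medians of -0.73 and -0.93. Elovl6, a fatty acid elongase, fell by 3.01 (SE 0.61, adjusted p = 0.00399) in WT mice and fell by 2.92 in labelled Lcn2-/- mice (SE 0.61, adjusted p = 0.00588), and Acss2, an acetyl-CoA synthetase, by 1.12 and 1.27 (adjusted p = 0.0106 and 0.00696). Scd1, a desaturase, fell by 1.44 in WT mice (adjusted p = 0.0371), and Acaca and Me1 by 0.76 and 1.11 in labelled Lcn2-/- mice (adjusted p = 0.0157 and 0.0201). Elovl6 was called with any 1 mouse left out, and its WT value was -4.25 without WT IMQ mouse 2 and -2.56 to -3.16 otherwise. The Acss2 call in WT mice was lost without WT IMQ mouse 1 (adjusted p = 0.0537). That of Scd1 held only without WT control mouse 1 or WT IMQ mouse 2, with an adjusted p of 0.0871 to 0.141 otherwise. In labelled Lcn2-/- mice the Acaca call was lost without control mouse 1 (0.0534) or IMQ mouse 1 (0.0616), and that of Me1 without control mouse 1 (0.0684), IMQ mouse 1 (0.0713) or IMQ mouse 3 (0.0750). Between the IMQ groups none of the 8 was called by edgeR or had an unadjusted p under 0.05, which 27% of all genes had. The summed level of the 8 was lower with IMQ (6793 to 11279 CPM in WT controls, 2533 to 5910 CPM in WT IMQ mice), as was that of the sebocyte markers, and the part of those cells was not tested. Of 6 genes of the isoprenoid branches, edgeR called none in WT mice, where 3 of the 6 had an unadjusted p under 0.05 beside 40.5% of all genes, and 2 were lower in labelled Lcn2-/- mice, Coq2 (-0.47, adjusted p = 0.0256) and Ggps1 (-0.28, adjusted p = 0.0450). The list medians were -0.20 and -0.23. Coq2 stayed called in 1 and Ggps1 in none of the 6 refits without a mouse.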

How the data were processed

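The authors deposited a table of raw counts, whole numbers of reads on 56923 Ensembl genes in 12 libraries, from paired reads of 150 bp of ribosome-depleted skin RNA. The submitters' processing notes name HISAT and the mouse build mm8. The counting tool and annotation are not given in the sources used here, and mm8 coordinates were not used. Names and positions came from GENCODE M21 (GRCm38), which holds 52073 identifiers (91.5%). The rest hold 0.567% of counts. A symbol shared by several identifiers went to the one with most counts.

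Genes were kept by filterByExpr (at least 10 counts, total at least 15), scaled by TMM and tested with edgeR 4.0.16 (limma 3.58.1, R 4.3.3), in a robust quasi-likelihood model with 1 mean for each of the 4 groups, fitted to all 12 mice together. The common biological coefficient of variation was 0.253. Genes were called at a Benjamini-Hochberg adjusted p under 0.05 over 18529 genes. Fold changes are log2 values, and log2 CPM used a prior count of 2. The study's methods name DESeq2, run here as an alternative (version 1.42.0). An exact permutation test of 3 against 3 mice could not go below p = 0.1 and was not used. The p-values set a difference of group means against a spread between mice estimated from all 4 groups. They thus also depend on mice of the groups not compared. The level that 3 counts give was 0.0985 to 0.202 CPM, which covers counting error only.

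Alternatives were RLE size factors, DESeq2, 2 other filters, the compared mice only, the replicate number as a block, each mouse left out, and a fold change above 2 with unadjusted p under 0.05. The 7 genes, the pathway and marker lists and the motifs were chosen with earlier results of these data known. Named genes are the 7, 13 other enzymes, up to 4 genes per list and comparison with the smallest adjusted p, and the 10 most alike. The lists are not complete, and 1 further enzyme and 1 of the genes most alike are not reported here. Reads shared with pseudogene copies of a gene could not be traced. Scripts were tested on simulated data. Pairs of libraries of a group differed by far more than counting noise (chi-square per degree of freedom 11.3 to 94.7), so none was counted as a duplicate. Plots used matplotlib 3.10.9 (Python 3.11.15).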

Additional observations from a re-analysis of the deposited data

Results flagged for a closer look

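The IMQ responses of the genotype labels differed for 2 of the named genes by the interaction test of edgeR with Benjamini-Hochberg adjustment. For Mylip the difference was 0.98 on the log2 scale (adjusted p = 0.0249): every WT IMQ mouse was below every WT control, and every labelled Lcn2-/- IMQ mouse was above every control of that label. The call held in 4 of 12 refits, each lacking 1 mouse, namely those without WT control mouse 2 or 3, WT IMQ mouse 2 or labelled Lcn2-/- control mouse 1. In the other 8, which called 2 to 107 genes in all beside 398 with all mice, the adjusted p lay between 0.0533 and 0.0826. The replicate block gave 0.0627. Of 5 alternative fits to all 12 mice the call held in 4. These were RLE size factors (edgeR adjusted p = 0.0243), no filter (0.0113), at least 10 counts in every library (0.0221) and DESeq2 (3.05e-05).

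For Abcg1 the difference was also 0.98 (adjusted p = 0.0450), and all IMQ mice lay above their controls under both labels. The call held in 3 of the 12 such fits, those without WT control mouse 3, WT IMQ mouse 2 or labelled Lcn2-/- control mouse 1. In the other 9, which called 2 to 113 genes in all, the adjusted p lay between 0.0819 and 0.130. The block gave 0.0800. Of the 5 alternative fits the call held in 4. These were RLE size factors (edgeR adjusted p = 0.0471), no filter (0.0234), at least 10 counts in every library (0.0424) and DESeq2 (0.00328). Groups of 3 mice are too small for a test of single outlying mice.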

How the results depend on the processing

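The number of the 7 genes called changed with the fit, and no called value changed sign. In WT mice 1 was called, with 5287 genes called in all. It was 2 with DESeq2 (6275 in all) and 2 with at least 10 counts in every library (4645 in all). It was 0 with a fold change above 2 (3371 in all) and 0 to 2 with a mouse left out (3289 to 5662 in all). In labelled Lcn2-/- mice 2 were called, with 4691 genes called in all. It was 1 with RLE size factors (4708 in all) and 1 with the replicate block (3722 in all). It was 0 with a fold change above 2 (3142 in all) and 0 to 2 with a mouse left out (2747 to 4288 in all). Between the IMQ groups 0 were called, with 886 genes called in all. It was 2 with DESeq2 (2650 in all), 1 without a filter (809 in all) and 1 with at least 10 counts in every library (1210 in all). It was 5 with the 6 IMQ mice only (1894 in all) and 0 in each fit with a mouse left out (0 to 2726 in all). Between the controls it was 0 under each alternative. For the interaction it was 0 except in the fit without WT control mouse 3, where it was 1 (1136 in all, against 398 with all mice). The cause of these changes was not tested.

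The 12 libraries are of different mice, and whether mice of the same replicate number share a litter or batch is not known. The 18 pairs of same-numbered mice had a mean correlation of deviations from the group mean of -0.05 (-0.55 to 0.20), with 1 pair over 0.1. Such deviations cancel out within a group, so these values cannot exclude a shared source. The block was run as an alternative only. It moved the calls over all genes between the IMQ groups from 886 to 136 and for the interaction from 398 to 10. Among the 7 genes it ended the call of Hmgcs1 in labelled Lcn2-/- mice (adjusted p = 0.0750).

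Calls over all genes between the IMQ groups ran from 0 (without WT IMQ mouse 1 or 3 or labelled Lcn2-/- IMQ mouse 3) to 2726 (without WT IMQ mouse 2), with 2650 by DESeq2 and 1894 with the 6 IMQ mice only. For the interaction they ran from 2 to 1927 with a mouse left out, with 2092 by DESeq2. DESeq2 called 114 genes between the controls, where edgeR called 2. In labelled Lcn2-/- mice, IMQ calls were 4691, 3142 with a fold change above 2 and 2747 to 4288 with a mouse left out. In WT mice they were 5287, 3371 with a fold change above 2 and 3289 to 5662. Of 455 values of the 7 genes under alternatives, 19 changed sign without being called.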
